A study of Mus musculus with 7 samples.

Results

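The genes described here encode proteins that hepatocytes secrete into the blood plasma. They were chosen as a list of 48 symbols, from albumin and the fibrinogen chains to apolipoproteins, clotting factors, protease inhibitors and complement. Of these, 44 were measured, among 18194 genes in all. Serpina3k, Trf, C3 and Gc had no probe set annotated to that gene alone and were not measured. They are described across all arrays, with attention to those already present in cultured endoderm.

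RNA from 7 samples was hybridized to Affymetrix mouse expression arrays, with 1 array for each sample and therefore no replicates. SK7_ESC is the undifferentiated SK7 line, a single male mouse ES cell line that carries a GFP reporter under the Pdx1 promoter. Ect, End and Pme are ectoderm, endoderm and paraxial mesoderm differentiated in culture from that line, so the 4 cultured arrays share its genotype. Brain, Liver and Sk_muscle (skeletal muscle) are tissues of male ICR mice older than 9 weeks, and how many animals were used is not stated in the labels or methods. The labels give the strain ICR for all 7 samples.

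Hepatocytes make most of the proteins of the plasma, which carry lipids, metals, heme and hormones, form and dissolve clots, and take part in innate immunity. Their genes are read by factors of the HNF1, HNF4, FOXA and C/EBP families, which are bound together at promoters and enhancers in liver. The liver forms from the foregut part of the definitive endoderm, and Afp and Alb are among the earliest plasma protein genes that its progenitors switch on. Visceral endoderm, an extraembryonic tissue, also makes several of these proteins, among them Afp, Ttr and apolipoproteins.

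The signal of a gene is the intensity of the brightest of its probe sets, by mean log2 signal over the arrays, after the authors had scaled each array to an average signal of 100. A signal above 50 was taken as above background. To be called higher in an array, a gene had to be above background there and at least 2 times as bright as in the array compared. A dimmer signal below 50 was raised to 50 first, which makes the ratio a lower bound, written as "at least". In 1 array per group these ratios have no replicate check and no p-value. In whole tissues and cultures, fewer cells of a type and less RNA per cell cannot be told apart. Signals of different genes come from different probes and are not ranked against each other.

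The labels were checked against marker genes. Of 14 measured hepatocyte enzyme genes, 13 were above background in Liver, 0 in Ect, End, Pme and Brain, and 1 each in SK7_ESC (Hal, 81.2) and Sk_muscle (Cyp2e1, 351.5). The exception in Liver was Ass1, at 33.2. All 10 markers of definitive endoderm were above background in End, 7 of 7 markers of muscle fibres in Sk_muscle and 5 of 5 markers of neurons in Brain. Above background in another array were at most 4 of these endoderm markers (SK7_ESC and Liver), 2 muscle fibre markers (SK7_ESC) and 3 neuron markers (Ect). The marker lists were chosen with earlier results of these data known, so this check is not independent of them. Between 7810 and 9075 genes were above background in an array.

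The DNA in front of 4 of these genes is shown as examples, and their signals contrast in these arrays. Alb and Fga were bright in Liver, Afp, the neighbour and paralog of Alb, was at background there, and F5 was the clotting factor gene already bright in End. Each line gives the 250 bases before the gene start annotated by RefSeq on GRCm38.p6, 5′ to 3′ on the plus strand, and capitals mark matches to the HNF1, FOXA or C/EBP motifs on either strand. The windows are chr5:90460620-90460869 for Alb, chr5:90490464-90490713 for Afp, chr3:83025903-83026152 for Fga and chr1:164151585-164151834 for F5.
Alb: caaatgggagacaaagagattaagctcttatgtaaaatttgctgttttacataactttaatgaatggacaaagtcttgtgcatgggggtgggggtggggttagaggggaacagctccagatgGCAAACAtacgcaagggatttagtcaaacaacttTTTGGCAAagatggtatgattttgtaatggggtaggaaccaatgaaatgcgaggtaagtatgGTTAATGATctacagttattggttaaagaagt
Afp: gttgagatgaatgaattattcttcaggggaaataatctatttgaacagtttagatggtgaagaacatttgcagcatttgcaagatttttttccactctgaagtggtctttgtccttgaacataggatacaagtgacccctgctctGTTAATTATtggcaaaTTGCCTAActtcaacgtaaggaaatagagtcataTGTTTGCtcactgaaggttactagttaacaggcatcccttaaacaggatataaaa
Fga: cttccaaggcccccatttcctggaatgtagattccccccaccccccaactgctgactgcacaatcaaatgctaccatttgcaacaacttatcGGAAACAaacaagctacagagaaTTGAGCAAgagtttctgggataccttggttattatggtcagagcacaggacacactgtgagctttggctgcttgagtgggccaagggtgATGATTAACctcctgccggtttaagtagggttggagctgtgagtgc
F5: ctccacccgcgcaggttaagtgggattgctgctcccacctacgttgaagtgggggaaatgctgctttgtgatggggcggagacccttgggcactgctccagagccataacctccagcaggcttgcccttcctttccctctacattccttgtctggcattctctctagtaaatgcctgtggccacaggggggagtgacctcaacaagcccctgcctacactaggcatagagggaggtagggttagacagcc

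Alb, Afp and Fga each held all of the 3 motifs, and F5 held none of them. The HNF1 match lay 32 to 24 bases before the gene start of Alb, 46 to 38 before that of Fga and 105 to 97 before that of Afp. These distances are counted from the annotated starts, whose positions were not checked here. The motifs searched on both strands were GTTAATNAT for HNF1, TGTTTNC for FOXA, TTNNGCAA for C/EBP, CAAAGTCCA for HNF4 and TATAAA for the TATA box, together with GTTAAT, the first 6 letters of the HNF1 motif. RefSeq promoters were given for 37 of the 48 genes, 42 promoters in all, out of 32851 promoters of all genes. HNF1 was matched in 5 of the 42 (11.9%), those of Afp, Alb, Cp, Fga and Gc, and in 0.737% of all promoters. FOXA was matched in 40.5% against 17.8%, and C/EBP in 35.7% against 9.56%. These 6 letters alone were matched in 21.4% against 6.43%, the TATA box in 16.7% against 12.4%, and HNF4 in 0 of the 42 against 0.384%. Of the 42 promoters, 27 promoters of 24 genes held at least 1 of HNF1, FOXA and C/EBP. The share of all promoters with at least 1 of these 3 was not computed, so this count has no baseline. A match is a description of these letters in this window and not a site of binding, and no match says only that the letters were not in it.

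**Figure D1:**
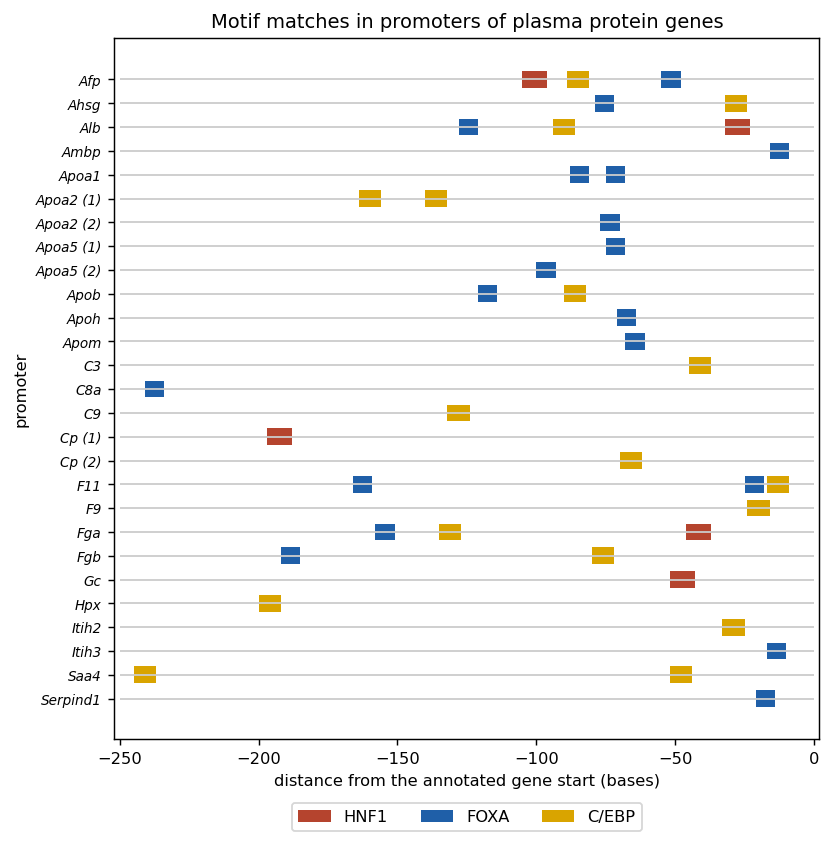
Matches to the HNF1, FOXA and C/EBP motifs in the 250 bases before the annotated start of plasma protein genes, with the distance from the start in bases on the horizontal axis. Each row is 1 of the 27 promoters with at least 1 match, and Alb, Afp and Fga are the rows that hold all 3 motifs.

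Plasma protein genes were bright in Liver and at background in most other arrays. In Liver, 43 of 44 (97.7%) were above background, where 42.9% of all genes were. All 44 had their highest signal in Liver, although for Afp that signal was itself at background. The same 43 genes were higher in Liver than in both Brain and Sk_muscle, which was the case for 7.71% of all genes, and higher in Liver than in every other array, which was the case for 5.6%. Against End alone, 43 were higher in Liver, beside 11.3% of all genes. The log2 ratio of Liver to the brighter of Brain and Sk_muscle had a median of 6.78 over the 44 genes and a range from 0.0 to 8.36, and its median over all genes was 0.0. Quantile normalization, which lowers the brightest Liver signals, gave a median of 6.32 over the 44 genes, and the Alb signal was then 7891.0 in Liver and 325.1 in Sk_muscle. The Cp signal was then 9099.4 in Liver and 198.2 in Sk_muscle, and that of Apoa2 9035.7 in Liver and 129.1 in SK7_ESC. The median signal of the 44 genes was 9113.4 in Liver, 25.45 in Sk_muscle, 7.55 in Brain, 5.6 in Pme, 3.7 in End, 3.55 in Ect and 2.4 in SK7_ESC, while the median over all genes lay between 32.4 and 49.6 in each array. Thus 28 genes were above background in Liver alone and 15 in Liver and at least 1 other array. The share of all genes above background in Liver alone was not computed, so this count and those by role below have no baseline.

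**Figure D2:**
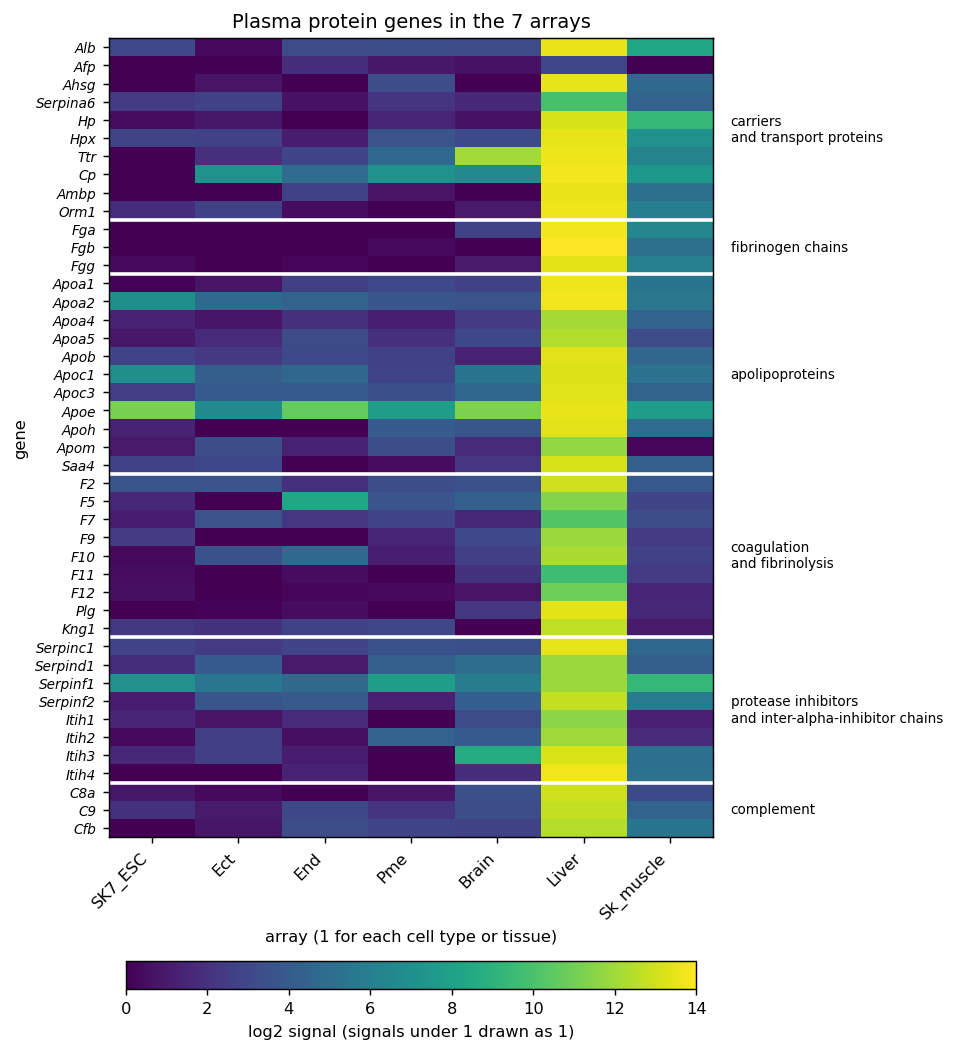
Log2 signal of the 44 measured plasma protein genes (rows, grouped by role) in the 7 arrays (columns), with signals under 1 drawn as 1. The Liver column is bright for every gene except Afp, and the brightest fields outside it are Apoe in SK7_ESC, End and Brain, and Ttr in Brain.

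By count, carriers and transport proteins were the group with most exceptions to a presence in Liver alone. Of 10 measured, 6 were above background in another array, beside 2 of 3 fibrinogen chains. Alb, the main carrier and osmotic protein of plasma, had signals of 8.5 in SK7_ESC, 1.3 in Ect, 9.3 in End, 9.8 in Pme, 9.2 in Brain, 11977.1 in Liver and 303.9 in Sk_muscle. Liver and Sk_muscle were thus the arrays with Alb above background, and Liver was 39.4-fold higher than Sk_muscle. Afp, the fetal counterpart of albumin, lies next to Alb on chromosome 5 with 0 protein-coding genes between them. Its signal was 0.2 in SK7_ESC, 0.8 in Ect, 3.6 in End, 1.9 in Pme, 1.6 in Brain, 8.0 in Liver and 0.5 in Sk_muscle. None of the 5 Afp probe sets was above background in any array, and their highest signal was 12.6, in Liver. Ahsg (fetuin-A, an inhibitor of mineral deposition) and Ambp (the precursor of alpha-1-microglobulin and bikunin) were above background in Liver alone, at 11251.6 and 12012.0, at least 225-fold and at least 240-fold above every other array. Serpina6, the carrier of glucocorticoids, had 966.9 in Liver and at most 20.8 elsewhere.

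The fibrinogen genes Fga, Fgb and Fgg encode the 3 chains of the clot protein and adjoin each other on chromosome 3. Fga had signals of 0.6 in SK7_ESC, 0.3 in Ect, 0.6 in End, 0.3 in Pme, 6.9 in Brain, 13715.7 in Liver and 90.3 in Sk_muscle. Fgb had 0.7 in SK7_ESC, Ect and End, 1.3 in Pme, 0.5 in Brain, 16411.1 in Liver and 35.5 in Sk_muscle. Fgg had 1.3 in SK7_ESC, 0.7 in Ect, 1.2 in End, 0.6 in Pme, 2.0 in Brain, 11166.4 in Liver and 69.2 in Sk_muscle. All of the chains were therefore at background in the cultured cells and in Brain, and Fga and Fgg were a little above it in Sk_muscle. Liver was 152-fold higher than the next array for Fga, at least 328-fold for Fgb and 161-fold for Fgg.

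Apolipoproteins, which build lipoprotein particles and direct their uptake, were above background in Liver for 11 of 11 genes, with Saa4, an apolipoprotein of HDL, counted among them. Their Liver signals ranged from 3455.7 for Apom to 13613.1 for Apoa2, and the median log2 ratio of Liver to the brighter of the other tissues was 7.64. Apob, the scaffold of VLDL and LDL, had 10704.7 in Liver and at most 24.7 in any other array. Apoa1, Apoc3, Apoa4 and Apoa5 adjoin each other on chromosome 9 and were all above background in Liver alone. Apoa1, the main protein of HDL, had 12692.9 in Liver and at most 42.8 elsewhere, and Apoa5, an activator of plasma triglyceride breakdown, had 5384.2 and at most 9.7. Apoc3, an inhibitor of that breakdown, had 10106.5 in Liver and at most 26.1 elsewhere, and Apoa4 had 4502.5 and at most 22.9. Apoh, which binds anionic phospholipids, had 10755.6 in Liver and at most 29.6 elsewhere, but its second probe set did not rise above background in any array and was 47.3 in Liver. Apoc1 and Apoe adjoin each other on chromosome 7, and both were also above background in cultured cells, as was Apoa2.

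Coagulation and fibrinolysis genes, the proteases and cofactors of clotting and of clot removal, were above background in Liver alone for 8 of 9 members, F5 being the other. F2, the precursor of thrombin, had 8056.4 in Liver and at most 15.2 elsewhere. Plg, the precursor of plasmin, had 11162.1 in Liver and at most 4.7 elsewhere, a ratio of at least 223. F11, an amplifier of thrombin formation, had 796.4 in Liver and at most 5.4 elsewhere, a ratio of at least 15.9. F7 and F10, which act together at the start of clotting and adjoin each other on chromosome 8, had 1236.9 and 4754.7 in Liver. The other F10 probe sets had 329.1 and 418.6 there and were at most 7.7 elsewhere, so the size of the Liver signal differed between probe sets and its direction did not. F9, F12 and Kng1, the precursor of bradykinin, had 3802.3, 1914.7 and 6479.4 in Liver and at most 8.6 in any other array. A further Kng1 probe set had 12213.7 in Liver and at most 17.3 elsewhere.

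Protease inhibitors and inter-alpha-inhibitor chains were above background in Liver for 8 of 8 measured genes and in another array for 3. Serpinc1, antithrombin, had 11427.2 in Liver and at most 26.2 elsewhere. Serpind1, heparin cofactor II, had 3872.6 in Liver and at most 32.1 elsewhere. Itih1, Itih3 and Itih4, heavy chains that stabilise hyaluronan matrix and their acute-phase relative, adjoin each other on chromosome 14 and had 3094.8, 9562.4 and 13282.5 in Liver. Itih2, a further heavy chain, had 4081.3 in Liver and at most 21.1 elsewhere. Complement genes were above background in Liver alone for 3 of 3 measured, namely C8a and C9 of the membrane attack complex, at 8174.1 and 6618.9, and Cfb of the alternative pathway, at 5622.7.

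In End, the cultured endoderm, 2 of 44 genes (4.55%) were above background, Apoe and F5, where 45.5% of all genes were. The other 42 included Alb, Afp, Ttr, Apoa1, Apob and the fibrinogen chains. F5, the cofactor of factor Xa in the prothrombinase complex, had signals of 3.1 in SK7_ESC, 1.0 in Ect, 296.9 in End, 12.7 in Pme, 19.7 in Brain, 2754.4 in Liver and 7.7 in Sk_muscle. End and Liver were thus the arrays with F5 above background. F5 was at least 5.94-fold higher in End than in SK7_ESC, Ect and Pme, and Liver was 9.28-fold higher than End. A further F5 probe set gave 8.6 in SK7_ESC, 4.0 in Ect, 220.5 in End, 3.9 in Pme, 10.3 in Brain, 2159.5 in Liver and 2.5 in Sk_muscle, the same order of arrays above background. F5 was the 1 member (2.27%) called higher in End than in SK7_ESC, and 4.89% of all genes were so called.

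Apoe, a ligand of lipoprotein receptors that glia and macrophages also secrete, was the member above background in all 7 arrays. Its signal was 2258.1 in SK7_ESC, 106.5 in Ect, 1612.2 in End, 232.2 in Pme, 2380.8 in Brain, 12013.0 in Liver and 220.7 in Sk_muscle. SK7_ESC and End lay close together, with a ratio of 1.4 that was not called, and both were far above Ect and Pme. Liver was 5.05-fold higher than Brain. After quantile normalization Apoe was 8017.7 in Liver and 3799.6 in Brain, a smaller ratio, and with all arrays set to the same median Brain, at 1794.4, fell below SK7_ESC, at 2727.5, and End, at 1875.2. End was 15.1-fold higher than Ect and 6.94-fold higher than Pme, while SK7_ESC was 21.2-fold and 9.72-fold higher. Apoe and F5 were the 2 members higher in End than in both other layers (4.55%, against 1.86% of all genes). The single Apoe probe set has an identifier that marks sequence shared between transcripts.

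A further 5 members had signals between 20 and 50 in End, below the limit used. They were Apoa2 at 21.8, Apoc1 at 26.7, F10 at 27.8, Serpinf1 at 28.4 and Cp at 30.1. Apoa2, Apoc1 and Serpinf1 were at the same time lower in End than in SK7_ESC, and these were 3 of 44 members (6.82%), against 3.81% of all genes. The median log2 ratio of End to SK7_ESC over the 44 members was 0.0, with a range from -1.44 to 2.57, and over all genes it was 0.0 as well. Of 34 members the signal in End was at most 10, and such signals carry no order.

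**Figure D3:**
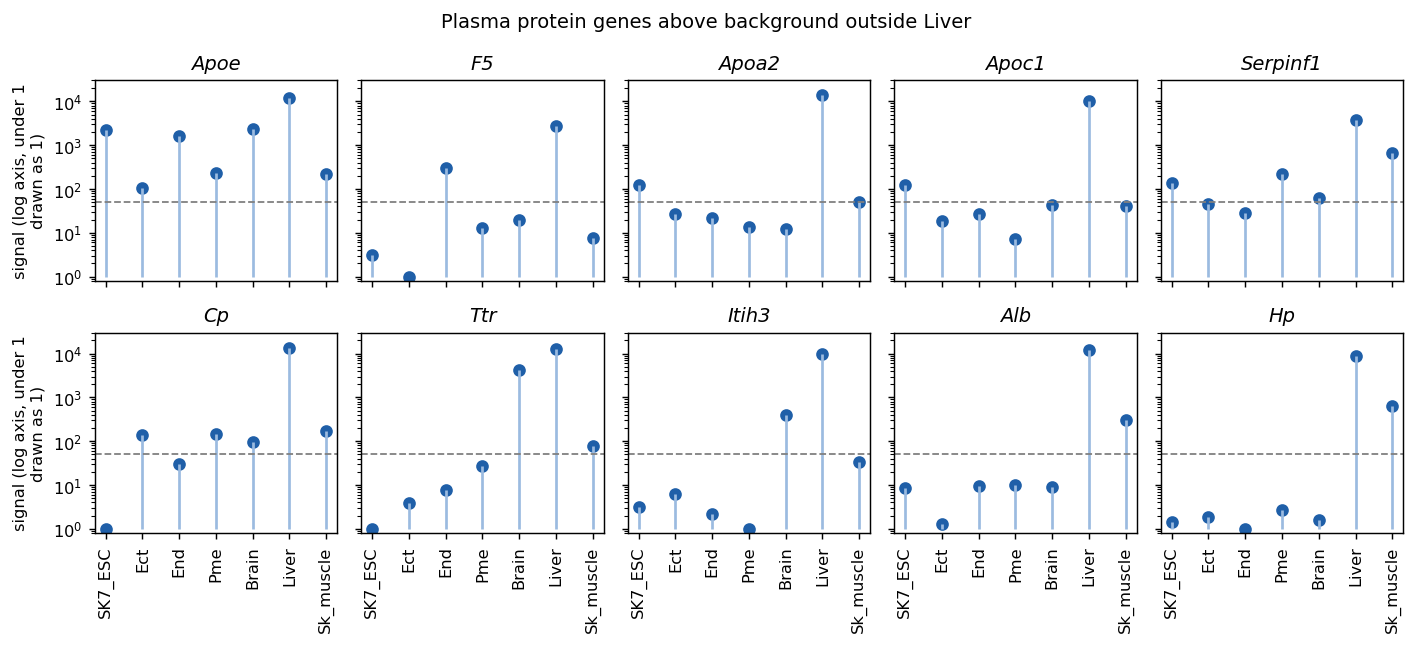
Signal (log axis, signals under 1 drawn as 1) of 10 plasma protein genes that were above background outside Liver, 1 point for each of the 7 arrays, with the background of 50 as a dashed line. F5 is above the line in End and Liver alone, Apoe is above it in every array, and Liver holds the highest point in each panel.

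In SK7_ESC, 4 members (9.09%) were above background, against 44.4% of all genes, and they were Apoa2, Apoc1, Apoe and Serpinf1. Apoa2, a structural protein of HDL, had signals of 124.3 in SK7_ESC, 27.5 in Ect, 21.8 in End, 13.2 in Pme, 12.1 in Brain, 13613.1 in Liver and 49.5 in Sk_muscle. Apoc1, an inhibitor of lipoprotein uptake, had 121.0 in SK7_ESC, 18.7 in Ect, 26.7 in End, 7.3 in Pme, 43.9 in Brain, 9953.3 in Liver and 41.0 in Sk_muscle. Both were above background in SK7_ESC and Liver alone, at least 2.49-fold and at least 2.42-fold higher in SK7_ESC than in each germ layer. Of 16 markers of visceral and parietal endoderm, 8 were above background in SK7_ESC, 8 in Pme, 8 in Ect and 7 in End. Among all genes the shares were 44.4%, 47.4%, 47.1% and 45.5%, in the same order. Against SK7_ESC, 4 of these markers were higher in End and 5 were lower, beside 4.89% and 3.81% of all genes. The summed signal of the markers was 2430.8 in SK7_ESC and between 1936.8 and 4054.6 in the germ layers. This sum is weighted by its brightest probes, such as that of Sparc, at 673.2 in SK7_ESC and 1746.5 in Pme. The part of visceral and parietal endoderm in the Apoa2 and Apoc1 signals was not tested.

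In Ect, 2 members (4.55%) were above background, Apoe and Cp, against 47.1% of all genes, and in Pme 3 (6.82%), Apoe, Cp and Serpinf1, against 47.4%. Cp, ceruloplasmin, the copper-carrying ferroxidase of plasma, had signals of 0.9 in SK7_ESC, 141.3 in Ect, 30.1 in End, 143.6 in Pme, 95.9 in Brain, 13688.9 in Liver and 175.6 in Sk_muscle. SK7_ESC and End were thus the arrays with Cp at background. Cp was the 1 member called higher than in SK7_ESC in Ect, at least 2.83-fold, where 6.62% of all genes were, and the 1 member so called in Pme, at least 2.87-fold, where 6.74% were. Lower than in SK7_ESC were 4 members in Ect (Apoa2, Apoc1, Apoe and Serpinf1, 9.09%, against 4.89% of all genes) and 3 in Pme (Apoa2, Apoc1 and Apoe, 6.82%, against 4.55%). The comparisons of the 3 layers share the SK7_ESC array.

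The 8 Cp probe sets did not all follow the one used. A further 4 of them were above background in both Ect and Pme, with Ect signals from 53.6 to 99.0 and Pme signals from 57.6 to 116.3, and were at most 9.3 in SK7_ESC. Of these, 2 reached a ratio of 2 in Pme, at least 2.26 and at least 2.33, and none did in Ect, where the highest was at least 1.98. Another 2 probe sets were at background in Liver, at 12.4 and 32.0, while the remaining 6 had 821.5 to 13688.9 there.

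Serpinf1, PEDF, a serpin that inhibits blood vessel growth rather than proteases and that fibroblasts and fat cells also secrete, had signals of 135.6 in SK7_ESC, 45.2 in Ect, 28.4 in End, 221.4 in Pme, 60.7 in Brain, 3846.9 in Liver and 648.9 in Sk_muscle. Among cultured cells it was highest in Pme, 1.63-fold above SK7_ESC, which was not called, and at least 4.43-fold above End. In SK7_ESC it was at least 2.71-fold higher than in Ect and End. A further probe set had 74.0 in SK7_ESC, 4.6 in Ect, 2.3 in End, 92.5 in Pme, 7.4 in Brain, 2087.6 in Liver and 250.4 in Sk_muscle, so that Brain was at background by it and the ratio of SK7_ESC to Ect and End, at least 1.48, was not called. Serpinf2, antiplasmin, adjoins Serpinf1 on chromosome 11, had 6607.3 in Liver and 55.0 in Sk_muscle, and was at most 18.1 in every cultured array and in Brain. Of 9 fibroblast markers, 7 were above background in Pme, 5 in SK7_ESC and Ect, 4 in End and 9 in Sk_muscle. Their summed signal was 599.9 in SK7_ESC, 1961.5 in Ect, 515.2 in End, 7784.0 in Pme, 2319.9 in Brain, 2791.9 in Liver and 12734.8 in Sk_muscle, and their part in the Serpinf1 signal was not tested.

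**Figure D4:**
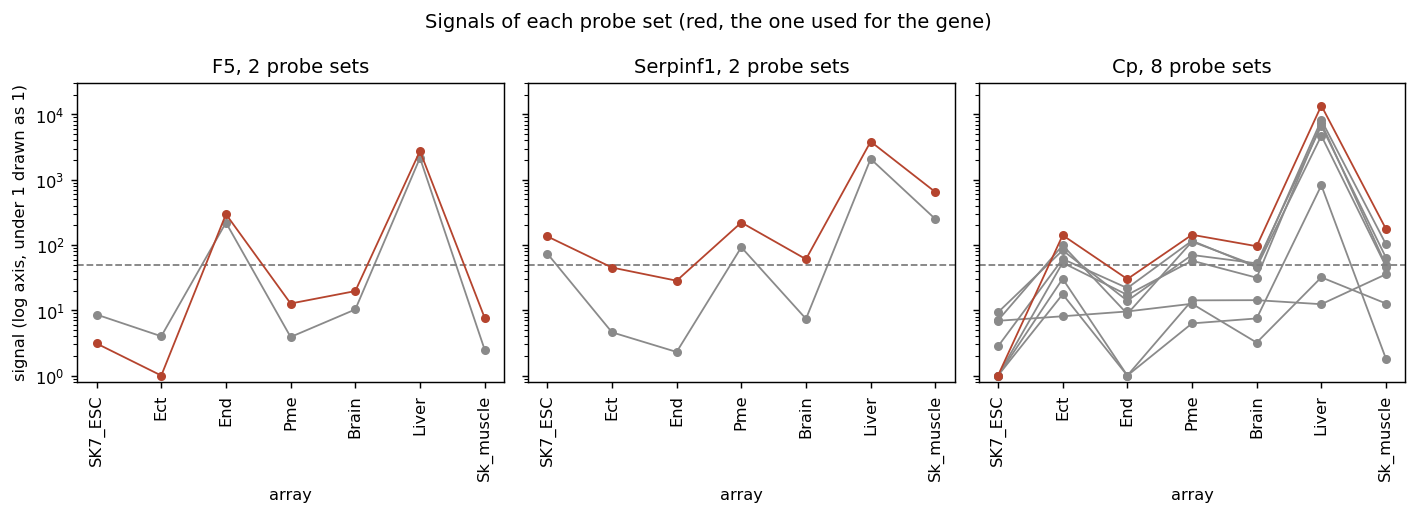
Signal (log axis, signals under 1 drawn as 1) of each probe set of F5, Serpinf1 and Cp in the 7 arrays, with the probe set used for the gene in red, the others in grey, and the background of 50 dashed. Both F5 probe sets are above background in End and Liver alone, whereas 2 of the 8 Cp probe sets stay at background in Liver.

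In Brain, 5 members (11.4%) were above background, against 49.9% of all genes, namely Apoe, Serpinf1, Ttr, Cp and Itih3. Serpinf1 fell to background in Brain after quantile normalization, at 47.2, and after scaling to equal medians, at 45.8. Cp was above background in Brain by the probe sets with 95.9 and 52.4, and at most 47.9 by the others. With the geometric mean of probe sets, both Serpinf1 and Cp were at background in Brain. Ttr, transthyretin, which carries thyroid hormone and retinol-binding protein and is made by the choroid plexus as well as the liver, had signals of 0.6 in SK7_ESC, 3.8 in Ect, 7.6 in End, 27.6 in Pme, 4211.7 in Brain, 12718.8 in Liver and 77.3 in Sk_muscle. Brain was 54.5-fold higher than Sk_muscle, and Liver was 3.02-fold higher than Brain. The 4 Ttr probe sets gave 2081.8 to 4211.7 in Brain and 10443.6 to 12718.8 in Liver, and were at most 7.8 in End. After quantile normalization Ttr was 7862.5 in Brain and 8347.9 in Liver, and the difference was no longer called. Of 11 choroid plexus markers, 4 were above background in Brain, Folr1 at 52.9, Clic6 at 56.5, Kcnj13 at 73.6 and Igf2 at 153.2, while Kl was 31.1 and Otx2 15.9. Their summed signal was 490.9 in Brain and lay between 277.1 and 4325.0 in the other arrays. The highest sum was in Sk_muscle, where Aqp1 alone was 3951.4. The part of the choroid plexus in the Ttr signal was not tested.

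Itih3 had signals of 3.1 in SK7_ESC, 6.3 in Ect, 2.2 in End, 0.7 in Pme, 395.0 in Brain, 9562.4 in Liver and 34.1 in Sk_muscle. Brain was at least 7.9-fold higher than Sk_muscle, and the signals of its neighbours Itih1 and Itih4 in Brain were 9.2 and 3.5. As a percentage of the same gene in Liver, the Brain signal was 33.1 for Ttr, 19.8 for Apoe, 4.13 for Itih3, 1.58 for Serpinf1 and 0.701 for Cp. All 8 astrocyte markers and all 7 oligodendrocyte markers were above background in Brain, with summed signals of 13344.8 and 7060.8. In the other arrays the astrocyte sum was between 2104.9 and 13668.4, and the oligodendrocyte sum was at most 442.6. The highest astrocyte sum was in Liver, where Clu was 9608.8 and Aldh1l1 3505.0. Of the 8 astrocyte markers, 6 were called higher in Brain than in Liver. Such a sum is weighted by its brightest probes. The part of these cell types in the Apoe and Itih3 signals was not tested.

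In Sk_muscle, 11 members (25.0%) were above background, against 43.3% of all genes. Between 20 and 50, below the limit used, lay 16 more, and the other arrays outside Liver had at most 5 such members. The share of all genes in that range was not computed, and the median over all genes in Sk_muscle was 33.8. The 11 were Alb, Fga, Fgg, Apoe, Serpinf1, Serpinf2, Hp, Hpx, Ttr, Cp and Orm1. The other Ttr probe sets were at background in Sk_muscle, at 26.2 to 43.0. Cp was above background there by the probe sets with 175.6, 102.5 and 63.9, and at most 48.9 by the others. With the geometric mean of probe sets, 9 members were above background in Sk_muscle, and Cp and Ttr were not among them. Hp, haptoglobin, which binds free hemoglobin, had signals of 1.4 in SK7_ESC, 1.9 in Ect, 0.9 in End, 2.7 in Pme, 1.6 in Brain, 8957.8 in Liver and 630.5 in Sk_muscle. Hpx, hemopexin, which binds free heme, had 7.4 in SK7_ESC, 6.6 in Ect, 2.2 in End, 11.9 in Pme, 8.8 in Brain, 11408.8 in Liver and 137.0 in Sk_muscle. Higher in Sk_muscle than in Brain were Hp at least 12.6-fold, Serpinf1 10.7-fold, Alb at least 6.08-fold and Hpx at least 2.74-fold. No share of all genes is given for this comparison, so these calls have no baseline. Liver was 14.2-fold higher than Sk_muscle for Hp, 5.93-fold for Serpinf1 and 83.3-fold for Hpx. Fga, Fgg, Cp, Orm1 (an acute-phase glycoprotein) and Serpinf2 did not reach a ratio of 2.

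The Sk_muscle signal of the 11 members was not a fixed share of their Liver signal. It ranged from 0.503% for Orm1 to 16.9% for Serpinf1, a 33.5-fold range, with a median of 1.2%. Hp stood at 7.04%, Alb at 2.54%, Apoe at 1.84%, Fga at 0.658% and Fgg at 0.62%. Hepatocyte enzymes had a summed signal of 572.9 in Sk_muscle and 75171.2 in Liver, with Cyp2e1 the 1 of 14 above background in Sk_muscle. Of 5 adipocyte markers, 3 were above background in Sk_muscle, Adipoq at 688.2, Retn at 121.4 and Fabp4 at 6653.1, and their summed signal was 7504.2 there and at most 358.4 in the other arrays. Of 12 markers of macrophages and microglia, 7 were above background in Sk_muscle, 9 in Brain, 10 in Liver and 0 in the cultured cells, with summed signals of 786.1, 3104.2 and 3710.5 in the tissues and at most 95.1 in the cultured cells. The part of these cell types in the plasma protein signals was not tested.

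**Figure D5:**
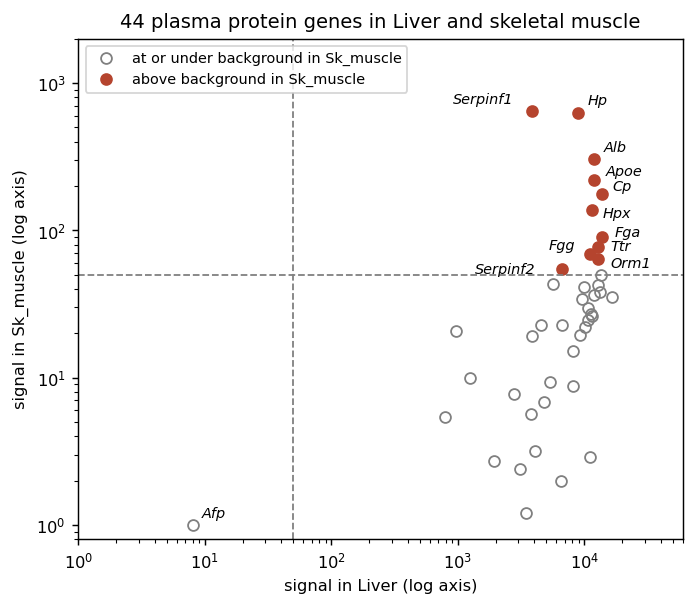
Signal in Sk_muscle against signal in Liver (both log axes, signals under 1 drawn as 1) for the 44 genes, with dashed lines at the background of 50. The 11 filled points are the genes above background in both, led by Serpinf1 at 648.9 and Hp at 630.5 in Sk_muscle, and Afp is the point below background on both axes.

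Genes that act with these proteins were taken from further lists. Of 43 other measured genes of liver plasma proteins, 43 were above background in Liver and 4 in End. The shares of all genes were 42.9% and 45.5%. Higher in Liver than in every other array were 40 of the 43, against 5.6% of all genes. The 4 in End were Rbp4, the carrier of retinol, at 120.7, the lipid transfer protein gene Pltp at 203.1, the clotting inhibitor gene Tfpi at 228.7 and Cpn1, a subunit of a plasma carboxypeptidase, at 90.4. Rbp4 was the 1 called higher in End than in SK7_ESC, at least 2.41-fold, where 4.89% of all genes were so called. Pltp and Tfpi were brighter in SK7_ESC, at 627.6 and 405.9, than in Liver, at 176.0 and 59.5.

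Of 14 measured liver transcription factor genes, 14 were above background in Liver, 8 in End and 4 in SK7_ESC. Among all genes the shares were 42.9%, 45.5% and 44.4%, in the same order. Higher in End than in SK7_ESC were 6 of the 14, against 4.89% of all genes. In End, the pioneer factor genes Foxa1 and Foxa2 had signals of 828.1 and 958.2, the endoderm factor gene Gata6 had 999.7, and Hhex, a factor of early liver formation, had 791.5. Hnf4a was 86.8 in End and 1053.7 in Liver, and Cebpa was 5.5 in End and 993.3 in Liver. Against 7.71% of all genes, 10 of 14 measured genes of receptors and lipoprotein assembly were higher in Liver than in both other tissues. Among them, Asgr1, a receptor that clears plasma glycoproteins, had 3129.7 in Liver and at most 5.6 elsewhere, and Mttp, which loads lipid onto Apob protein, had 1485.0 in Liver and 37.5 in End. Vldlr, a receptor that binds Apoe protein, went the other way, with 118.1 in SK7_ESC, 922.1 in End, 2968.0 in Sk_muscle and 31.4 in Liver.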

How the data were processed

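RNA of 7 samples, 1 for each cell type or tissue, was hybridized to Affymetrix Mouse Genome arrays with 45101 probe sets. The deposited values are linear intensity values, which the authors scaled globally to an average signal of 100, and no source used here names the algorithm that summarised the probes. Leaving out the highest and lowest 2% of values, the mean of every array was 100.0. The labels and the methods name different RNA kits. Of the probe sets, 34958 have 1 gene symbol in the platform annotation, which gave 18194 genes, and 932 with several symbols and 9211 unnamed were left out. Each gene took the brightest of its probe sets, by mean log2 signal. Background was set to 50 and calls to a 2-fold ratio, with dimmer signals raised to 50. The computation of the calls was checked on simulated data with assumed noise, which gives no error rate for these arrays.

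The 48 genes, the marker lists and the pathway lists were chosen with earlier results of these data known. All 48 genes are given by values or counts, and up to 4 genes of each other list are named, those brightest in the array in question. Kl, Otx2, Aqp1, Hnf4a, Cebpa, Asgr1, Mttp, Vldlr, Hal, Cyp2e1 and Ass1 fall outside this rule and were chosen after their values were seen. Alternatives were a background of 20 or 100, a 3-fold rule, scaling to the same median, quantile normalization, averaging all probe sets of a gene by their geometric mean, and dropping probe sets with identifiers of shared sequence. With 1 array per group no p-value is given, and precision is limited by the number of arrays. Promoters and gene order came from RefSeq, GRCm38.p6. Protein sequences were not used here. Python 3.11.15 with numpy 2.4.6, pandas 2.3.3 and matplotlib 3.10.9 was used.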

Additional observations from a re-analysis of the deposited data

How the results depend on the processing

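The 110 alternative values for 17 results, counts of members and median ratios, held 0 reversals. Counts cannot change sign, so a reversal was possible only for the median ratios, and that of End to SK7_ESC was 0.0 in every setting. The absence of reversals therefore says little. In 84 of the 110 the value stayed within 1.5 times that reported, and in 26 it moved further. For the median log2 ratios, this limit applies to the ratio and not to its log2 value. F5 was called higher in End than in SK7_ESC under every alternative run. At 20 as the background, 4 members were above it in Ect, 7 in End, 5 in Pme, 8 in Brain and 27 in Sk_muscle, and the median log2 ratio of Liver to the brighter of the other tissues was 7.59. At 100 as the background, Brain had 3 members above it and Sk_muscle 6, 0 were lower in End, 0 higher in Ect and 0 higher in Pme than in SK7_ESC, and that median was 6.03. With the geometric mean of probe sets, 1 was above background in Ect, 3 in Brain and 9 in Sk_muscle, and 0 were higher in Ect and 0 in Pme. Without probe sets of shared sequence, 38 members were measured, and above background were 2 in SK7_ESC, 3 in Brain, 1 in Ect and 1 in End, 1 was higher in End than in both other layers, and 0 were higher in Ect and 0 in Pme. The 3-fold rule left 0 lower in End, 0 higher in Ect and 0 higher in Pme. After quantile normalization 42 members, all but Afp and Ttr, were higher in Liver than in every other array. No paired analysis was possible because each group has 1 array. With no replicates, differences near 2-fold and signals near 50 cannot be set against a spread between arrays.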
